A study of Mus musculus with 45 samples.

Results

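The sodium-glucose and glucose transporters described here are 8 genes, *Slc5a1*, *Slc5a2*, *Slc5a9*, *Slc5a10*, *Slc5a8*, *Slc5a12*, *Slc2a1* and *Slc2a2*, out of 55401 genes counted in mouse kidney tubules. They were chosen by name, because *Slc5a2* was nearly lost in kidneys that lacked both *Pkd1* and the cilia gene *Kif3a*, and its relatives were to be compared with it mouse by mouse. The level of *Slc5a2* in those double knockout mice is therefore given as a description without a test. All 8 genes passed the filter on low counts in both sexes.

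Filtered glucose is taken back by the proximal tubule in a relay of transporters. *Slc5a2* encodes SGLT2, the apical cotransporter of the early proximal tubule that recovers most of the glucose, and *Slc5a1* encodes SGLT1, which recovers the remainder further along. *Slc2a2* (GLUT2) and *Slc2a1* (GLUT1) are facilitative transporters through which glucose leaves the cell on the basolateral side. *Slc5a9* (SGLT4) and *Slc5a10* (SGLT5) are relatives that carry mannose and fructose, and *Slc5a8* and *Slc5a12* are sodium-coupled monocarboxylate transporters that recover lactate.

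TRAP RNASeq sequences the mRNA pulled down with an EGFP-tagged ribosomal protein, L10a. Each of the 45 libraries came from the kidneys of 1 mouse at postnatal day 49, 7 weeks of age. Every mouse carried the doxycycline-inducible, tubule-selective pair Pax8rtTA and TetOCre, with 1 copy each of these and of R26Rpl10a, and all had been given oral doxycycline. Only tubule cells in which Cre had been active made tagged ribosomes. Noncystic mice (8 males, 7 females) were Pkd1fl/+ and so kept an intact *Pkd1* allele. Pkd1KO mice (7 males, 8 females) were Pkd1fl/fl, and Pkd1KO+ciliaKO mice (9 males, 6 females) were Pkd1fl/fl with Kif3afl/fl. The lines had been backcrossed toward C57BL/6J. The pulldown is a bulk sample, so that fewer cells of a segment and less mRNA per cell cannot be told apart.

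Between 80874556 and 132958186 counts fell on genes per library, with a median of 103070359. Levels are given as CPM, the counts scaled to a common library size after TMM normalization. The floor of 3 counts was at most 0.0371 CPM in any library, and it covers counting error only. The targeted gene *Kif3a*, a subunit of the kinesin that builds cilia, followed the labels in all males. It lay between 13.6 and 25.2 CPM in noncystic males, between 21.4 and 28.9 in Pkd1KO males and between 4.84 and 7.33 in Pkd1KO+ciliaKO males. Noncystic male 8, at 13.6 CPM, stood apart from its group, where the next lowest had 20.2, but lay above every Pkd1KO+ciliaKO male. In females 2 libraries went against their labels. *Kif3a* was 6.62 CPM in the library labelled noncystic female 5, where the other 6 were between 23.0 and 25.05, and 20.5 CPM in the library labelled Pkd1KO+ciliaKO female 6, where the other 5 were between 6.49 and 8.38. The main female values of the members are therefore given with and without these 2 libraries, and other female values are with all libraries unless stated. *Pkd1* reads were not a check, since its group medians lay between 36.2 and 53.4 CPM and the deletion removes only a part of the transcript. On the first principal component of the TPM values, 4 male libraries (noncystic 3, Pkd1KO 4, Pkd1KO+ciliaKO 6 and 8) scored between -30.2 and -1.13, on the side of the 21 females (-38.4 to -12.9) and apart from the other 20 males (14.4 to 40.3).

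The members lie on 8 separate loci of GRCm38, among them *Slc5a2* at chr7:128265657-128272430 on the plus strand, *Slc5a10* at chr11:61672781-61720826 on the minus strand and *Slc5a1* at chr5:33104219-33162870 on the plus strand. Since the members are related, their coding sequences were searched for stretches that could share reads. The longest identical run between the coding sequence of *Slc5a2* and that of a relative was 22 bases in *Slc5a10* and 19 bases in *Slc5a1*, and it was 10 to 14 bases in the other 5. Both longest runs lie side by side in the middle of *Slc5a2*. They are shown because they are the longest that *Slc5a2* shares with a relative, with the identical bases in capitals. Runs between other pairs of members were not searched. The *Slc5a2* and *Slc5a10* stretches share 22 bases, at coding bases 950 to 1031 and 917 to 998. The *Slc5a1* stretch, coding bases 938 to 1016, carries in capitals the 19 bases that it shares with *Slc5a2*, and the last of these is the first base of the run shared with *Slc5a10*. The sequences are from the GENCODE vM21 transcripts, 5′ to 3′.
Slc5a2: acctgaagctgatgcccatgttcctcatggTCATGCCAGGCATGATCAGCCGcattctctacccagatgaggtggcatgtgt
Slc5a10: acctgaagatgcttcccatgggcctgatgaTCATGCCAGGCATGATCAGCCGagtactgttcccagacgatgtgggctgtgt
Slc5a1: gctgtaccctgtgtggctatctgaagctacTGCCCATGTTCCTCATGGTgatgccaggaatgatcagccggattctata

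Of all 50-base windows of each member's longest coding transcript, none was shared with another member. *Slc5a1*, *Slc5a8*, *Slc5a9* and *Slc2a2* shared none with any gene. *Slc5a2* shared 22.5% of its windows with *BC017158*, a gene on the opposite strand that overlaps its 3′ end by 1052 bases, and *Slc5a10* shared 11.7% with *Fam83g*, also on the opposite strand. Whether strand was used in the counting is not given in the sources used here, so the counts of these overlapping pairs are uncertain to that extent. The median count per library was 6738 for *Slc5a2* against 1405 for *BC017158*, and 8001 for *Slc5a10* against 2011 for *Fam83g*.

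The deposited TPM values are scaled per length, so that levels of different genes can be set side by side within a sex. In noncystic males the order of the medians was *Slc5a12* (223 TPM), *Slc5a8* (183), *Slc5a10* (106), *Slc5a2* (81.7), *Slc2a2* (56.4), *Slc5a1* (34.6), *Slc2a1* (26.6) and *Slc5a9* (10.3). The ranges of neighbours in that order overlapped except between *Slc5a8* and *Slc5a10* and between *Slc2a1* and *Slc5a9*. In noncystic females the order was *Slc5a12* (249 TPM), *Slc5a10* (148), *Slc5a2* (90.8), *Slc5a8* (62.7), *Slc2a2* (54.7), *Slc5a1* (41.7), *Slc2a1* (39.8) and *Slc5a9* (12.4), with *Slc5a8* below *Slc5a10* and *Slc5a2* where it was above both in males. In Pkd1KO+ciliaKO mice *Slc5a2* took the last place in both sexes, at a median of 3.40 TPM in males, below every value of *Slc5a9* (7.28 to 11.5), and at 5.15 TPM in females.

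**Figure D1:**
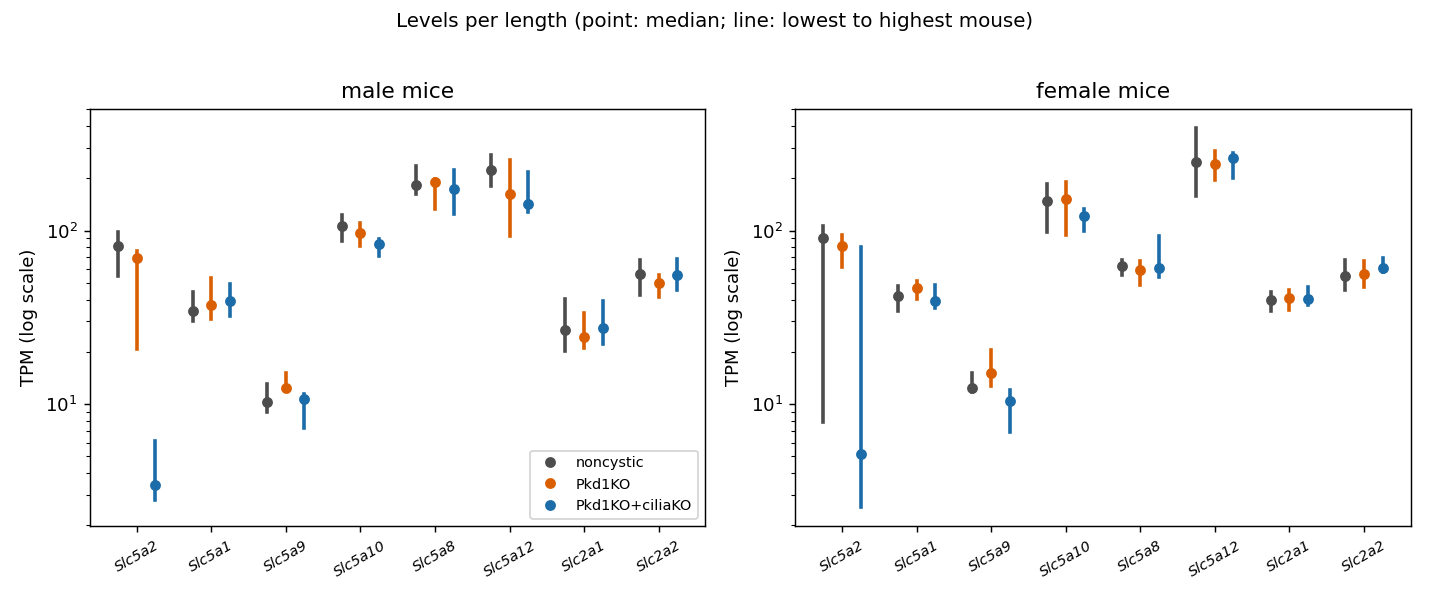
TPM on a log scale for the 8 genes in male mice (left) and female mice (right), where a point is the group median and a line runs from the lowest to the highest mouse. *Slc5a2* in Pkd1KO+ciliaKO males lies at 3.40 TPM, below every other gene in that group.

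*Slc5a2* was lower in Pkd1KO+ciliaKO than in noncystic kidneys by more than an order of magnitude in males, and in females once the 2 libraries against their labels were left out. In males its lowest, median and highest levels were 52.1, 80.3 and 97.1 CPM in noncystic mice, 17.6, 69.4 and 82.8 in Pkd1KO mice, and 2.695, 3.09 and 5.45 in Pkd1KO+ciliaKO mice. Every Pkd1KO+ciliaKO male thus lay below every other male, although 261 to 679 reads were still counted in each. The lowest noncystic male, at 52.1 CPM, was number 8, which also had the lowest *Kif3a* of its group. The fitted level in Pkd1KO+ciliaKO males was 0.0447 of that in noncystic males, a log2 fold change of -4.48, and the level in Pkd1KO males was 18.4-fold that in Pkd1KO+ciliaKO males.

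In females the levels of *Slc5a2* were 6.82, 77.1 and 91.5 CPM in noncystic mice, 54.5, 71.04 and 83.2 in Pkd1KO mice, and 2.22, 4.04 and 66.3 in Pkd1KO+ciliaKO mice. The ranges overlapped through the same 2 libraries whose *Kif3a* went against the label. The library labelled noncystic female 5 gave 6.82 CPM, and the library labelled Pkd1KO+ciliaKO female 6 gave 66.3. Without them the noncystic females ran from 71.8 to 91.5 CPM and the Pkd1KO+ciliaKO females from 2.22 to 5.30. Against noncystic females, the log2 fold change of Pkd1KO+ciliaKO was -2.31 with all libraries and -4.40 without the 2, which is 0.0474 of the noncystic level. Leaving out Pkd1KO+ciliaKO female 6 alone already gave -4.19.

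In Pkd1KO mice, which kept *Kif3a*, no difference of *Slc5a2* from noncystic mice was called. The log2 fold change of Pkd1KO against noncystic was -0.28 in males (SE 0.231, 95% interval -0.77 to 0.21, edgeR adjusted p = 0.512) and -0.01 in females (SE 0.318, adjusted p = 0.989). Over the fits without 1 mouse the male value ran from -0.35 to -0.11, the last of these without Pkd1KO male 4. Without the 2 female libraries the female value was -0.22 (SE 0.0844, adjusted p = 0.194). Among Pkd1KO males, number 4 stood apart with 17.6 CPM, where the next lowest had 61.7. Its *Kif3a* level of 24.1 CPM was within its group. That library also held the lowest *Slc5a12*, *Slc5a8* and *Slc2a2* levels of its group (110, 210.8 and 69.1 CPM), the lowest summed level of 9 early proximal tubule markers (4974 CPM) and the highest summed levels of 4 endothelial (269.6 CPM), 4 fibroblast (342.3 CPM), 4 macrophage (191.5 CPM) and 4 podocyte markers (40.8 CPM). The part of these differences in its *Slc5a2* level was not tested.

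**Figure D2:**
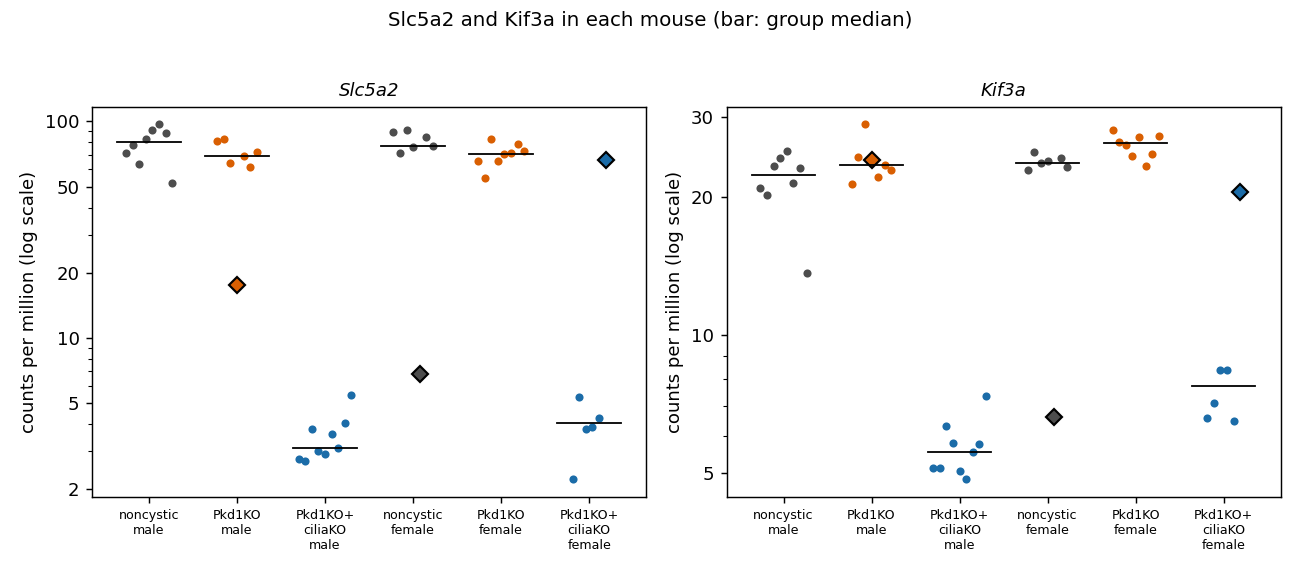
CPM on a log scale of *Slc5a2* (left) and *Kif3a* (right) in each of the 45 mice, with bars at the group medians and diamonds for the 3 libraries that stand out. The 9 Pkd1KO+ciliaKO males lie between 2.695 and 5.45 CPM of *Slc5a2*; the diamond in noncystic females is low and the one in Pkd1KO+ciliaKO females is high for both genes, and the one in Pkd1KO males is low for *Slc5a2* only.

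In every Pkd1KO+ciliaKO male *Slc5a1* outweighed *Slc5a2*, where in noncystic males the order was the opposite. The ratio of *Slc5a2* to *Slc5a1* TPM was 1.38 to 2.79 in noncystic males (median 2.45), 0.506 to 2.29 in Pkd1KO males (median 2.06) and 0.0657 to 0.161 in Pkd1KO+ciliaKO males (median 0.0887). *Slc5a2* made up a median of 35.4% of the summed TPM of the 4 SGLT genes *Slc5a1*, *Slc5a2*, *Slc5a9* and *Slc5a10* in noncystic males and 2.60% in Pkd1KO+ciliaKO males. In females the medians were 29.3% and 3.07%. These ratios follow from the level of *Slc5a2* and carry no test.

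No neighbour of *Slc5a2* was lower by a like amount. Of 30 tested protein-coding genes within 0.5 Mb, none was called in Pkd1KO+ciliaKO against noncystic males, where their log2 fold changes ran from -0.32 to 0.59. In females 2 of the 30 were called lower, *Prss36* at -0.38 (edgeR adjusted p = 0.0486) and *Prss8* at -0.34 (adjusted p = 0.0364), both with all libraries, which lie 318932 and 335553 bases away. The nearest gene, *BC017158*, which overlaps *Slc5a2* on the other strand, had a log2 fold change of -0.03 in males (adjusted p = 0.829) and of -0.01 in females (adjusted p = 0.971), and its group medians were 12.8 to 14.3 CPM in all 6 groups. The next nearest were *Tgfb1i1* (9958 bases away, 0.37 in males and 0.26 in females), *Armc5* (20557 bases, -0.03 and -0.08), *9130023H24Rik* (27626 bases, -0.07 and 0.09) and *Itgad* (41841 bases, 0.05 and -0.01), and none of these passed the test in either sex.

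**Figure D3:**
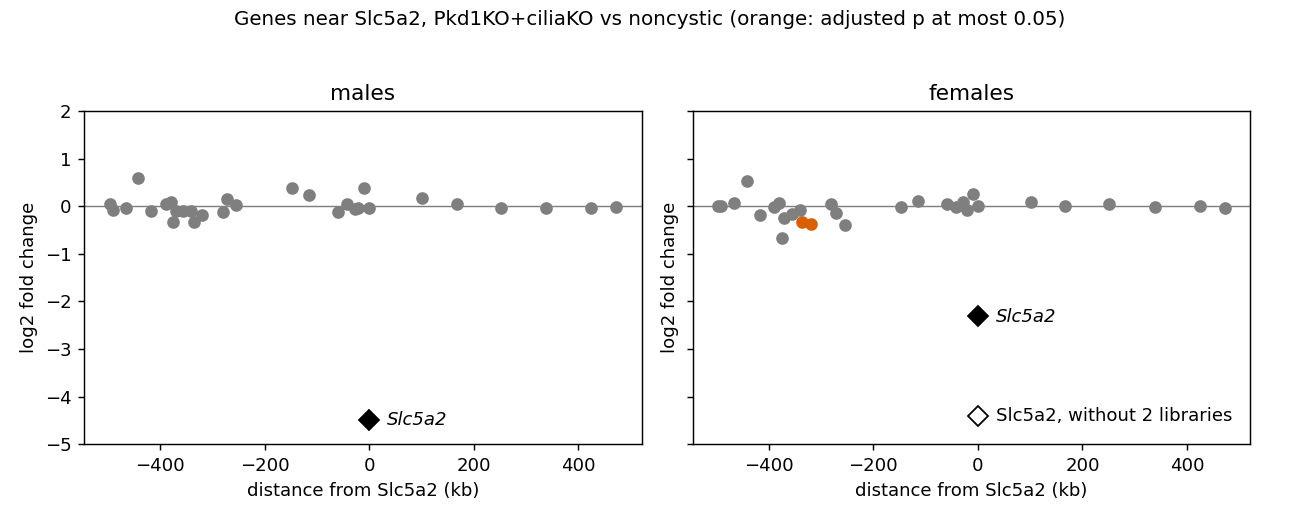
Log2 fold change of Pkd1KO+ciliaKO against noncystic mice for *Slc5a2* (black diamond) and the 30 tested protein-coding genes within 0.5 Mb, by distance from *Slc5a2* in kb, in males (left) and females (right). The neighbours lie between -0.66 and 0.59, with 2 called genes in females in orange, whereas *Slc5a2* lies at -4.48 in males and at -2.31 in females, or -4.40 without the 2 libraries (open diamond).

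The relatives of *Slc5a2* that were called in a comparison of genotypes were *Slc5a9* (SGLT4), *Slc5a10* (SGLT5), *Slc5a1* (SGLT1) and the lactate transporter *Slc5a12*, with log2 fold changes of 0.75 or less in size. A gene was called where edgeR's quasi-likelihood test gave it a p of 0.05 or less after Benjamini-Hochberg adjustment over all protein-coding genes. The comparisons of a sex share their groups, so they are not independent of each other. In Pkd1KO against noncystic males none of the 8 genes was called, where 6.3% of all 15991 genes were, and 2 had an unadjusted p under 0.05. In Pkd1KO against noncystic females again none of the 8 was called by edgeR, where 3.34% of all 15968 genes were, and 1 had an unadjusted p under 0.05. DESeq2 called 1 of the 8 in males, where it called 10.3% of all genes, and 0 in females, where it called 6.02%.

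Against Pkd1KO+ciliaKO mice the 7 relatives of *Slc5a2* were counted. In Pkd1KO+ciliaKO against noncystic males 2 of 7 were called, both lower, where 8.89% of all genes were called (3.26% lower), and the median log2 fold change of the 7 was -0.13 against 0.01 over all genes. In females 1 of 7 was called, also lower, where 2.54% of all genes were (1.87% lower), and the median was -0.13 against 0.01. In Pkd1KO against Pkd1KO+ciliaKO mice 1 of 7 was called in males, where 3.77% of all genes were (1.99% higher), and 2 of 7 in females, where 11.7% were (7.05% higher), all of them higher in Pkd1KO. Without the 2 female libraries the share of all genes called was 5.8% in Pkd1KO+ciliaKO against noncystic and 10.4% in Pkd1KO against Pkd1KO+ciliaKO females, and 1 of 7 relatives was called in each.

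**Figure D4:**
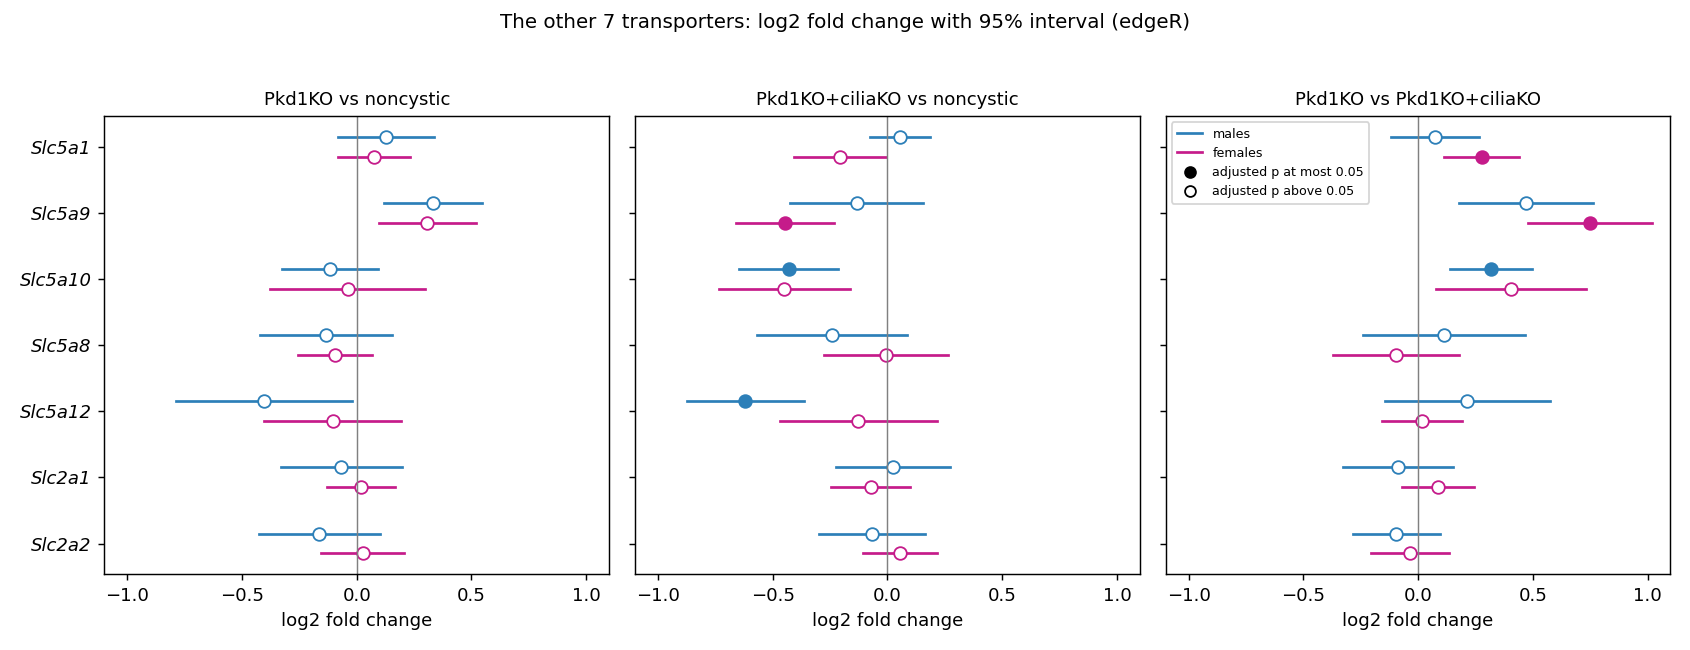
Log2 fold change with its 95% interval for the 7 relatives of *Slc5a2* in the 3 comparisons of genotypes, males in blue and females in magenta, filled where the edgeR adjusted p was at most 0.05. The filled points are *Slc5a10* and *Slc5a12* in males and *Slc5a9* in females in the middle panel, and *Slc5a10* in males and *Slc5a1* and *Slc5a9* in females in the right panel.

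*Slc5a9*, at chr4:111875375-111902918, was the relative that differed most between Pkd1KO and Pkd1KO+ciliaKO females. Its lowest, median and highest levels in females were 17.9, 19.9 and 22.8 CPM in noncystic, 19.9, 23.0 and 32.9 in Pkd1KO, and 10.7, 15.03 and 17.1 in Pkd1KO+ciliaKO mice. In CPM all 6 Pkd1KO+ciliaKO females lay below all 15 other females, with 17.1 against 17.9 at the nearest. In TPM they overlapped, since Pkd1KO+ciliaKO females reached 12.03 and noncystic females started at 11.7. The library labelled Pkd1KO+ciliaKO female 6 had 15.4 CPM and the library labelled noncystic female 5 had 18.8. It was 1.68-fold higher in Pkd1KO than in Pkd1KO+ciliaKO females (log2 fold change 0.75, SE 0.128, edgeR adjusted p = 0.00227), and 1.70-fold without the 2 libraries (adjusted p = 0.0039). This call held in each of the 14 fits that left out 1 mouse and in all other fits tried. Against noncystic females it fell by 0.45 in Pkd1KO+ciliaKO mice (SE 0.101, adjusted p = 0.0360; by 0.48 and 0.0313 without the 2 libraries). That call was lost, at adjusted p values of 0.0612 to 0.101, when noncystic female 2, 3, 6 or 7 or Pkd1KO+ciliaKO female 2, 3 or 4 was left out.

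In males *Slc5a9* was 14.4, 18.0 and 23.0 CPM in noncystic, 18.7, 22.1 and 26.6 in Pkd1KO, and 10.2, 18.2 and 19.9 in Pkd1KO+ciliaKO mice. The ranges overlapped, and the lowest pair among the Pkd1KO+ciliaKO males, 10.2 and 10.5 CPM, were 8 and 6, which lie toward the females on the first component. The log2 fold change of Pkd1KO was 0.33 against noncystic (SE 0.101, adjusted p = 0.0604) and 0.47 against Pkd1KO+ciliaKO males (SE 0.139, adjusted p = 0.0681), both short of the threshold with all libraries. Without the 4 male libraries both passed, at 0.34 (adjusted p = 0.0459) and 0.36 (adjusted p = 0.0179). Leaving out noncystic male 6 or Pkd1KO male 4 alone also brought the first under it, at adjusted p values of 0.0251 to 0.0411. In females the value against noncystic was 0.31 (SE 0.101, adjusted p = 0.109; 0.29 and 0.161 without the 2 libraries, where 3.49% of all genes were called).

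*Slc5a10*, the mannose and fructose cotransporter SGLT5, was lower in Pkd1KO+ciliaKO males. Its levels were 58.1, 86.0 and 98.8 CPM in noncystic, 68.0, 79.1 and 88.8 in Pkd1KO, and 50.1, 64.0 and 72.6 in Pkd1KO+ciliaKO males. The ranges overlapped, since noncystic male 3, which lies toward the females on the first component, had 58.1 CPM and noncystic male 1 had 72.3. *Slc5a10* fell by 0.43 on the log2 scale against noncystic males (SE 0.103, edgeR adjusted p = 0.0134), to 0.742 of their level, and the call held in each of the 17 fits without 1 mouse. That call was lost in the fit with a replicate block, which called 4.78% of all genes against 8.89% without it. The replicate numbers used for the block are names only. Pkd1KO males were 1.25-fold higher than Pkd1KO+ciliaKO males (log2 fold change 0.32, SE 0.0847, adjusted p = 0.0454). Of the calls made on members, this one was lost in the largest share of fits. It was lost in 11 of 16 fits without 1 mouse (Pkd1KO male 1, 2, 3, 5 or 7, or Pkd1KO+ciliaKO male 1, 3, 6, 7, 8 or 9), at adjusted p values of 0.0514 to 0.101, and without the 4 male libraries (0.27, adjusted p = 0.0641).

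Female levels of *Slc5a10* spread more widely, at 67.5, 107.3 and 139.7 CPM in noncystic, 64.5, 109.6 and 144.5 in Pkd1KO, and 60.5, 79.8 and 94.0 in Pkd1KO+ciliaKO mice. The low values of the first pair of groups came from noncystic female 1 and Pkd1KO female 7. The log2 fold change of Pkd1KO+ciliaKO against noncystic females was -0.45 (SE 0.134, adjusted p = 0.0774; -0.44 and 0.113 without the 2 libraries), and it passed the threshold without noncystic female 1 (adjusted p = 0.0194). Pkd1KO against Pkd1KO+ciliaKO females gave 0.40 (SE 0.155, adjusted p = 0.1003; 0.38 and 0.158 without the 2 libraries), which passed without Pkd1KO female 7 (adjusted p = 0.0387). The size was thus close to that in males, with a larger error.

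*Slc5a1* (SGLT1), the other glucose cotransporter, was not called higher where *Slc5a2* was nearly lost. Its levels were 42.1, 49.4 and 54.9 CPM in noncystic, 41.3, 54.5 and 70.97 in Pkd1KO, and 46.5, 49.4 and 58.1 in Pkd1KO+ciliaKO males, with overlap throughout. Pkd1KO+ciliaKO against noncystic males gave a log2 fold change of 0.06, with a 95% interval of -0.07 to 0.19 (edgeR adjusted p = 0.623). In females the levels were 41.2, 52.6 and 61.1 CPM in noncystic, 47.7, 57.8 and 60.6 in Pkd1KO, and 38.1, 46.5 and 55.1 in Pkd1KO+ciliaKO mice. The last group was lower by 0.21 than noncystic females, with an interval of -0.41 to -0.01, which did not pass the adjusted threshold (adjusted p = 0.221; -0.21 and 0.271 without the 2 libraries). Pkd1KO females were 1.21-fold higher than Pkd1KO+ciliaKO females (log2 fold change 0.28, SE 0.0773, adjusted p = 0.0299). This call was lost without the 2 libraries (0.27, adjusted p = 0.0533), and also when Pkd1KO+ciliaKO female 2, 3, 4 or 6 was left out by itself (adjusted p 0.0507 to 0.0716).

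*Slc5a12*, at chr2:110597298-110647779, encodes the low-affinity lactate transporter of the early proximal tubule. It was the most abundant member per length in noncystic mice, and it had the largest called fall among the relatives. Its levels were 207.1, 309.2 and 393.9 CPM in noncystic, 110, 237.9 and 345.0 in Pkd1KO, and 159.6, 187.6 and 288.6 in Pkd1KO+ciliaKO males. Of the 9 Pkd1KO+ciliaKO males, number 3 with 288.6 CPM overlapped the middle of the noncystic range. Numbers 6, 7 and 4, with 214.8, 209.6 and 207.14 CPM, lay just above the lowest noncystic male. *Slc5a12* fell by 0.62 against noncystic males (SE 0.122, edgeR adjusted p = 0.0038), to 0.651 of their level, and by 0.69 without the 4 male libraries (adjusted p = 0.00133). The call held in each of the 17 fits without 1 mouse, but it was lost in the fit with a replicate block. That fit called 4.78% of all genes against 8.89% without the block. Pkd1KO males lay between, at -0.40 against noncystic (SE 0.181, adjusted p = 0.199) and 0.22 above Pkd1KO+ciliaKO males (SE 0.170, adjusted p = 0.509).

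In females *Slc5a12* was 191.3, 310.3 and 464.7 CPM in noncystic, 236.3, 289.3 and 335.6 in Pkd1KO, and 229.9, 297.3 and 316.6 in Pkd1KO+ciliaKO mice, and the groups overlapped throughout. Pkd1KO+ciliaKO against noncystic females gave -0.13 on the log2 scale, with an interval of -0.47 to 0.21 (edgeR adjusted p = 0.687; -0.23 and 0.369 without the 2 libraries). The male minus female difference of this fold change was -0.49 (SE 0.222, adjusted p = 0.859), so that a fall particular to males was not shown.

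*Slc5a8*, at chr10:88885992-88929515, encodes the high-affinity lactate transporter found further along the proximal tubule. Within a sex its genotypes overlapped. Its levels were 243.5, 327.6 and 425.1 CPM in noncystic, 210.8, 328.8 and 385.8 in Pkd1KO, and 171.0, 300.4 and 384.4 in Pkd1KO+ciliaKO males. The 4 male libraries that lie toward the females were the lowest of their groups, with 243.5 CPM in noncystic 3, 210.8 in Pkd1KO 4, and 183.9 and 171.0 in Pkd1KO+ciliaKO 6 and 8. Female levels were 86.9, 98.0 and 111.9 CPM in noncystic, 74.0, 92.0 and 110.2 in Pkd1KO, and 80.1, 88.5 and 147.8 in Pkd1KO+ciliaKO mice. The log2 fold change of Pkd1KO+ciliaKO against noncystic was -0.24 in males (interval -0.57 to 0.08, edgeR adjusted p = 0.358) and -0.00496 in females (interval -0.27 to 0.26, adjusted p = 0.988; 0.02 and 0.955 without the 2 libraries).

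For both facilitative transporters no difference between genotypes was called, and the groups overlapped. *Slc2a2* (GLUT2), at chr3:28697903-28731359, was 69.0, 107.6 and 133.5 CPM in noncystic, 69.1, 99.5 and 108.3 in Pkd1KO, and 90.0, 97.3 and 129.4 in Pkd1KO+ciliaKO males, and its female group medians were 96.8, 100.6 and 97.5 CPM. The 95% interval of Pkd1KO+ciliaKO against noncystic was -0.30 to 0.16 in males and -0.10 to 0.21 in females on the log2 scale. *Slc2a1* (GLUT1), at chr4:119108711-119137983, was 24.3, 31.8 and 40.0 CPM in noncystic, 24.8, 28.4 and 38.2 in Pkd1KO, and 25.2, 32.8 and 40.6 in Pkd1KO+ciliaKO males, and its female medians were 43.3, 43.3 and 40.4 CPM. Its intervals in the same comparison were -0.22 to 0.27 and -0.24 to 0.10. Without the 2 libraries the female log2 fold changes were 0.02 for *Slc2a2* (edgeR adjusted p = 0.922) and -0.11 for *Slc2a1* (adjusted p = 0.482). With all libraries, neither gene had an unadjusted p under 0.05 in edgeR in any comparison of genotypes.

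**Figure D5:**
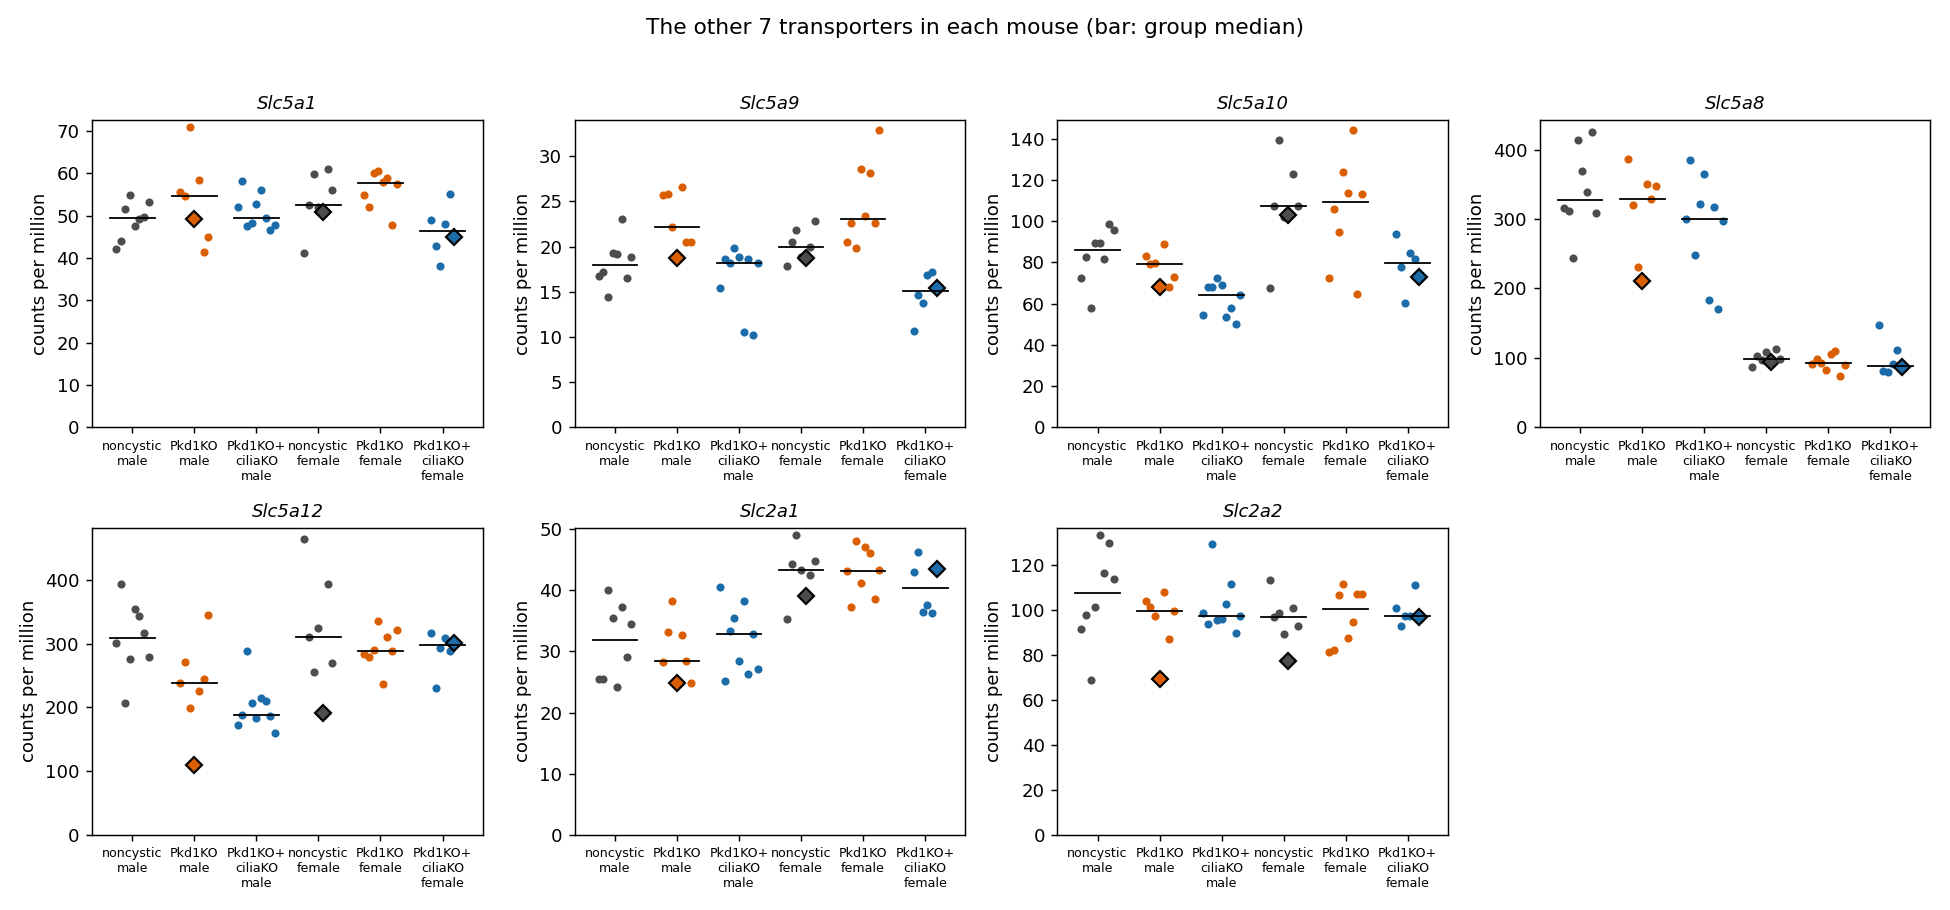
CPM of the 7 relatives of *Slc5a2* in each of the 45 mice, with axes from 0, bars at the group medians and diamonds for the same 3 libraries as in the plot of *Slc5a2* and *Kif3a*. *Slc5a8* lies between 171.0 and 425.1 CPM in males and between 74.0 and 147.8 in females, and *Slc5a9* in Pkd1KO+ciliaKO females lies below both other female groups.

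Lactate transporter *Slc5a8*, GLUT1 and SGLT5 differed between the sexes. In noncystic mice these 3 of the 8 genes were called between males and females, where 27.4% of all 15828 genes were, 14.1% higher and 13.3% lower in males. *Slc5a8* was 3.42-fold higher in males (log2 fold change 1.77, SE 0.152, edgeR adjusted p = 6.06e-12), and no male of any genotype fell into the female range. *Slc2a1* was 0.738 of the female level in males (-0.44, SE 0.107, adjusted p = 0.0017), with 24.3 to 40.0 CPM in noncystic males against 35.3 to 49.1 in females. *Slc5a10* was 0.780 of the female level (-0.36, SE 0.131, adjusted p = 0.0363), and this call was lost without the 4 male and 2 female libraries (-0.31, adjusted p = 0.0800). It was also lost when noncystic male 1, 2, 3 or 6 or noncystic female 2, 3, 6 or 7 was left out (adjusted p 0.0515 to 0.113). *Slc5a2* differed by 0.13 with an interval of -0.76 to 1.03 (adjusted p = 0.859). The fit behind this interval included the libraries labelled noncystic female 5 (6.82 CPM) and Pkd1KO+ciliaKO female 6 (66.3 CPM). Without the 4 male and 2 female libraries the difference was -0.03.

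Whether a genotype effect differed between the sexes was tested directly, and no member was called by edgeR. This was so for 8 of 8 genes in Pkd1KO against noncystic, 7 of 7 in Pkd1KO against Pkd1KO+ciliaKO and 7 of 7 in Pkd1KO+ciliaKO against noncystic, where 0.0126%, 0.221% and 0.0316% of all genes were called. At an unadjusted p under 0.05 there were 0, 0 and 2 members, the last being *Slc5a12* and *Slc5a1* (0.26, SE 0.122, adjusted p = 0.863). DESeq2 called 0 members in each, where it called 0.183%, 0.455% and 0.133% of all genes.

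Other members of both families were read from lists of 7 further Slc5 and 10 further Slc2 genes. *Slc2a9*, a urate transporter, fell in Pkd1KO mice of both sexes and in Pkd1KO+ciliaKO males. It was 17.0, 19.9 and 27.2 CPM in noncystic males, 6.81, 10.7 and 13.02 in Pkd1KO and 10.8, 12.4 and 14.0 in Pkd1KO+ciliaKO males, so that the noncystic males did not overlap the others. It fell by 0.94 in Pkd1KO (SE 0.124, edgeR adjusted p = 0.000427) and by 0.70 in Pkd1KO+ciliaKO males (adjusted p = 3.81e-05) against noncystic. Both calls held in all 8 alternative fits and in every fit without 1 mouse.

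In females *Slc2a9* was 11.6, 21.7 and 27.0 CPM in noncystic, 10.2, 11.6 and 14.1 in Pkd1KO, and 11.5, 15.2 and 16.4 in Pkd1KO+ciliaKO mice. The lowest noncystic value belonged to the library labelled noncystic female 5, and without it the noncystic females started at 16.7 CPM, above all other females. It fell by 0.79 in Pkd1KO against noncystic females (edgeR adjusted p = 0.00309; by 0.89 and 0.000103 without the 2 libraries). Against noncystic females, Pkd1KO+ciliaKO gave -0.64 without the 2 libraries (adjusted p = 0.0172) and was not called with them.

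*Slc5a6*, the sodium-dependent multivitamin transporter, differed between Pkd1KO and Pkd1KO+ciliaKO mice in both sexes. Its levels were 22.3, 31.5 and 36.7 CPM in noncystic, 26.1, 32.3 and 36.7 in Pkd1KO, and 19.7, 23.8 and 27.0 in Pkd1KO+ciliaKO males. In females they were 28.0, 44.3 and 56.0, then 41.9, 52.5 and 86.6, and then 16.3, 27.0 and 33.5 CPM. The Pkd1KO and Pkd1KO+ciliaKO females did not overlap. Pkd1KO was higher than Pkd1KO+ciliaKO by 0.44 in males (edgeR adjusted p = 0.00526) and by 1.14 in females (adjusted p = 0.00179; 1.23 and 0.00155 without the 2 libraries), and both calls held in all 8 alternative fits and in every fit without 1 mouse. Against noncystic mice it fell by 0.35 in Pkd1KO+ciliaKO males (adjusted p = 0.0268; 0.0561 without the 4 male libraries) and by 0.76 in Pkd1KO+ciliaKO females (adjusted p = 0.0364; by 0.88 and 0.0179 without the 2 libraries). The first of these was lost in 3 of 17 and the second in 7 of 13 fits without 1 mouse. That *Slc5a6* was also lower in noncystic males than females, by 0.55 (adjusted p = 0.00325), is a difference of sex.

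The other called Slc5 and Slc2 genes were few. Of the 6 tested Slc5 genes, *Slc5a4b* was also called, in Pkd1KO against Pkd1KO+ciliaKO females, but it stayed under 0.35 CPM in every library. Among the 10 Slc2 genes, *Slc2a4*, the insulin-responsive GLUT4, was lower in Pkd1KO than in Pkd1KO+ciliaKO mice by 0.51 in males (edgeR adjusted p = 0.0381; 0.121 without the 4 male libraries, and lost in 11 of 16 fits without 1 mouse) and by 0.45 in females (adjusted p = 0.00491; 0.00776 without the 2 libraries). *Slc2a5*, the fructose transporter GLUT5, fell by 0.41 in Pkd1KO+ciliaKO against noncystic males (adjusted p = 0.0134). *Slc2a13*, a proton-coupled inositol transporter, was lower by 0.62 in Pkd1KO than in Pkd1KO+ciliaKO females (adjusted p = 0.0168; 0.0177 without the 2 libraries). No further gene of either list was called in a comparison of genotypes.

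Partners and regulators of SGLT2 were read from a list of 11 genes, of which 10 were tested. *Pdzk1ip1*, the accessory protein that SGLT2 needs for activity, is named after its values were seen. Its medians were 313 CPM in noncystic and 311 in Pkd1KO+ciliaKO males and 320 and 304 in females. The log2 fold change between them was 0.05 in males (edgeR adjusted p = 0.853) and -0.05 in females (adjusted p = 0.692). None of the 10 was called in Pkd1KO against noncystic in either sex. In Pkd1KO+ciliaKO against noncystic, *Pdzk1*, a scaffold of apical transporters, fell by 0.27 in males (adjusted p = 0.0183). In females *Hnf4a*, a transcription factor of the proximal tubule, fell by 0.35 (adjusted p = 0.0295; 0.0264 without the 2 libraries), and *Slc9a3r1*, another apical scaffold, fell by 0.41 (adjusted p = 0.0164; 0.0032 without the 2 libraries). Of the 13 fits without 1 mouse, *Hnf4a* was lost in 6 and *Slc9a3r1* in 2.

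The same 3 genes differed in Pkd1KO against Pkd1KO+ciliaKO females. *Slc9a3r1* was higher by 0.36 (edgeR adjusted p = 0.00562), *Hnf4a* by 0.35 (adjusted p = 0.0256) and *Pdzk1* by 0.43 (adjusted p = 0.0469), of which *Pdzk1* was lost without the 2 libraries and in 11 of 14 fits without 1 mouse. *Hnf4a* (0.34) and *Pdzk1* (0.26) were higher in noncystic males than females (edgeR adjusted p = 0.00821 and 0.0440), and *Pdzk1* was lost there in 8 of 45 fits without 1 mouse. *Rsc1a1* had 0 counts in all libraries.

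Markers of the proximal tubule moved with some of the members and not with others. Of 9 early proximal tubule genes, 3 were called lower in Pkd1KO+ciliaKO against noncystic males (*Slc7a8* by 0.62, *Cubn* by 0.50 and *Lrp2*, named after its values were seen, by 0.49) and none in females, and the summed level had medians of 10869 and 8005 CPM in those male groups and 9622 and 9367 in the female groups. In males, where the sum was lower, *Slc5a10* and *Slc5a12* were lower as well. In females, where the medians of the sum were close, *Slc5a10* had nearly the same log2 fold change as in males (-0.45 against -0.43), though it was not called. That of *Slc5a12* was -0.13 in females. In Pkd1KO males the median of the sum was 8419 CPM. There 2 early genes were called lower than in noncystic males, yet no member was called. In Pkd1KO against Pkd1KO+ciliaKO mice 1 early gene was lower in males, and 1 was higher and 1 lower in females. Of 8 late proximal tubule genes, 4 were called lower in Pkd1KO+ciliaKO against noncystic females and 1 in males, and 5 were called higher in Pkd1KO against Pkd1KO+ciliaKO females, among them *Atp11a* (0.96) and *Mep1a* (0.42). The call of *Mep1a* was lost in 8 of 14 fits without 1 mouse and that of *Atp11a* in 0. The summed level was 1642 to 2160 CPM in Pkd1KO+ciliaKO females, 1963 to 3060 in noncystic and 2224 to 4053 in Pkd1KO females, next to the levels of *Slc5a9*. *Slc5a8* did not move with it, at a log2 fold change of -0.00496 in Pkd1KO+ciliaKO against noncystic females (edgeR adjusted p = 0.988). In noncystic males against females 4 late genes were higher and 1 was lower, next to *Slc5a8*. The part of these markers in the members' values was not tested. Of 4 genes each for the thick ascending limb, the distal convoluted tubule, principal cells and intercalated cells, 1, *Pvalb* of the distal convoluted tubule, was called in Pkd1KO+ciliaKO against noncystic males, where it was higher, and none in females. In Pkd1KO against Pkd1KO+ciliaKO mice, next to the calls of *Slc5a10*, *Slc5a9* and *Slc5a1*, the thick ascending limb had 2 genes lower in males and 1 in females, the distal convoluted tubule and intercalated cells had 1 lower each in both sexes, and principal cells had 0. Their part in the members' values was not tested.

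Markers of cells outside the tubule were detected. The summed levels of 4 genes each were 8.40 to 40.8 CPM for podocytes, 38.6 to 269.6 for endothelial cells, 34.4 to 191.5 for macrophages and 56.9 to 348.2 for fibroblasts over all libraries, and none of these 16 genes was at or under the floor in all of them. The macrophage sum was mostly *Csf1r*. In Pkd1KO females its median was 73.7 CPM, where those of *Adgre1*, *C1qa* and *Cd68* were 1.65, 3.53 and 0.947. In Pkd1KO+ciliaKO against noncystic mice 1 podocyte gene was higher and 1 macrophage gene lower in males, and none of the 16 was called in females. The 5 tubule injury genes summed to 14.0 to 158.9 CPM, with 1 called higher in Pkd1KO+ciliaKO against noncystic males and none in females. In Pkd1KO against Pkd1KO+ciliaKO mice 1 macrophage gene was higher in each sex, 1 injury gene was higher in females, and no podocyte, endothelial or fibroblast gene was called. In Pkd1KO against noncystic males 2 injury, 2 podocyte and 1 macrophage genes were higher, and none of these lists was called in females. Next to the sex differences of *Slc5a8*, *Slc2a1* and *Slc5a10*, 4 of the 5 injury genes were lower in noncystic males than females (median log2 fold change -1.23), as were 2 thick ascending limb, 2 intercalated cell, 1 principal cell and 1 fibroblast gene, and 1 macrophage gene was higher. The part of these lists in the members' values was not tested.

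The genes most like *Slc5a2* over the mice were set out by Pearson's r on log2(CPM + 0.1), within the 24 males and within the 21 females, for 12643 protein-coding genes. This is a description without a p, since the points share genotypes and libraries. The closest were *Kif3a* (r = 0.961 in males and 0.971 in females), *Pttg1*, which encodes securin (0.955 and 0.980), *Abcc6*, a transporter of the proximal tubule (0.953 and 0.941), *Sdccag8*, a centrosomal protein gene (0.959 and 0.939), and *Ccdc114*, a dynein docking gene of motile cilia (0.920 and 0.958). The most opposite were *Car11* (-0.944 and -0.909), *Coch* (-0.913 and -0.909), *Npas3*, a neuronal transcription factor gene (-0.974 and -0.878), *Snrpa1* (-0.873 and -0.877) and *Fam213b* (-0.898 and -0.838). These genes were chosen over all libraries, the 2 female libraries against their labels included. *Pttg1* was 6.27 CPM in the library labelled noncystic female 5 and 32.7 in the library labelled Pkd1KO+ciliaKO female 6.

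Positions of these genes are given because several share a chromosome. *Kif3a* (chr11:53567379-53601967) and *Pttg1* (chr11:43420250-43426251) lie on chromosome 11. *Abcc6* (chr7:45967555-46030302), *Ccdc114* (chr7:45924072-45948963), *Car11* (chr7:45699843-45704682) and *Snrpa1* (chr7:66059003-66074587) lie on chromosome 7, as does *Slc5a2*. In Pkd1KO male 4, where *Kif3a* was within its group, *Abcc6* was 1.61 CPM against at most 1.53 in the Pkd1KO+ciliaKO males, *Car11* was 2.30 against at least 2.38 and *Npas3* was 1.47 against at least 2.62. Each of these 3 levels in Pkd1KO male 4 was the extreme of its group, on the side of the Pkd1KO+ciliaKO males, as were those of *Ccdc114* (3.27 CPM), *Coch* (3.22) and *Snrpa1* (15.98). The other 4 genes did not follow. *Pttg1* was 21.3 CPM there, where Pkd1KO male 3 had 15.3 and the Pkd1KO+ciliaKO males 3.96 to 5.78, and *Sdccag8* was 15.88 against 10.2 to 13.1 in the Pkd1KO+ciliaKO males. *Fam213b*, at 31.6 CPM, was within its group, as *Kif3a* was.

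No relative was among the genes most like *Slc5a2*, which were picked as the extremes of 12643 genes. All r include the Pkd1KO+ciliaKO mice, where *Slc5a2* was nearly lost and *Kif3a* was targeted. The r with *Slc5a2* was 0.71 in males and 0.36 in females for *Slc5a10*, 0.60 and 0.30 for *Slc5a12*, 0.46 and 0.70 for *Slc5a9*, and -0.03 and 0.49 for *Slc5a1*. It was 0.35 and -0.17 for *Slc5a8*, -0.08 and 0.39 for *Slc2a1*, and 0.09 and 0.06 for *Slc2a2*.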

How the data were processed

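Ribosome-bound mRNA from the kidneys of 45 mice was sequenced after rRNA depletion, and each mouse was 1 replicate of its labelled sex and genotype. Per the labels and the methods, the authors made the deposited gene counts with fastp 0.20.0 (trimming), STAR 2.7.9 (alignment to GRCm38.p6) and featureCounts 2.0.0. The deposited TPM values, made by the authors per sex, cover protein-coding genes that reached 6 counts in 20% of the mice or more. They summed to 727843 to 944641 per male and 875872 to 946924 per female library, so they were scaled over a wider set of genes.

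Here, the deposited counts of the protein-coding genes past that filter were tested with edgeR 4.0.16 in R 4.3.3 (TMM, quasi-likelihood test, Benjamini-Hochberg adjustment over 15991 genes in males and 15968 in females). Genotypes were compared within a sex without covariates. The difference of sexes and the sex-by-genotype terms came from 1 fit of the 6 groups over 15828 genes. The scripts were tested on simulated counts. Alternatives were DESeq2 1.42.0, its size factors, limma voom (limma 3.58.1), other filters, a replicate block, 3 genotypes in 1 fit, and leaving out libraries.

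The members, lists, tests and alternatives were chosen with earlier results of these data known. All 8 members were named. From each other list at most 4 genes were named, those with the smallest p, and for likeness to *Slc5a2* the 5 highest and 5 lowest r (mean of at least 1 CPM). Every pair of replicates differed beyond counting noise (chi-square of 53.6 per degree or higher). One listed gene and the results that need it are not reported here.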

Additional observations from a re-analysis of the deposited data

Results flagged for a closer look

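Of 48 sets of CPM values (8 genes in 6 groups), 6 held 1 mouse that stood apart. The gap of that mouse to its nearest neighbour was a larger share of the group's range than Dixon's 95% value. *Slc5a2* accounted for 4 of them. Its values in Pkd1KO+ciliaKO mice are listed as a description only, since its level there was why the genes were chosen. They are among the 6, so that count is not set against chance. The library labelled Pkd1KO+ciliaKO female 6 had 66.3 CPM with the nearest of its group at 5.30, and the library labelled noncystic female 5 had 6.82 CPM with the nearest at 71.8; in both, *Kif3a* went against the label too. Pkd1KO male 4 had 17.6 CPM with the nearest at 61.7, and its *Kif3a* of 24.1 CPM was within its group. Pkd1KO+ciliaKO male 9 had 5.45 CPM with the nearest at 4.04.

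The other two were for *Slc5a12*. Pkd1KO+ciliaKO male 3 had 288.6 CPM with the nearest at 214.8, and Pkd1KO+ciliaKO female 2 had 229.9 CPM with the nearest at 288.0.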

How the results depend on the processing

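Leaving out each mouse in turn, the members called numbered 0 to 1 in Pkd1KO against noncystic males, 0 to 1 in Pkd1KO against Pkd1KO+ciliaKO males, 2 to 2 in Pkd1KO+ciliaKO against noncystic males, 1 to 3 in Pkd1KO against Pkd1KO+ciliaKO females, 0 to 2 in Pkd1KO+ciliaKO against noncystic females and 2 to 3 between sexes, with the mice given beside each gene. The shares of all genes called in those fits are not given here. The ranges alone thus do not tell whether the calls over all genes moved too. DESeq2 called 1, 2 and 2 members in Pkd1KO against noncystic males, Pkd1KO against Pkd1KO+ciliaKO males and Pkd1KO+ciliaKO against noncystic females, and so did limma voom. Of all genes, DESeq2 called 10.3%, 7.72% and 8.02% there, and limma voom 9.22%, 8.69% and 8.5%. Without the 4 male libraries 1 was called in Pkd1KO against noncystic males, without the 2 female libraries 1 in Pkd1KO against Pkd1KO+ciliaKO females, and without a filter on low counts 0 in Pkd1KO against Pkd1KO+ciliaKO males. The shares of all genes called in these 3 fits were 5.72%, 10.4% and 1.67%. The cause was not tested.

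Same-numbered mice did not deviate together (r from -0.370 to 0.467), so that the replicate numbers are names only. The fit with a replicate block called 0 members in Pkd1KO against Pkd1KO+ciliaKO males, 0 in Pkd1KO+ciliaKO against noncystic males (*Slc5a12* -0.58, adjusted p = 0.0524), 0 in Pkd1KO+ciliaKO against noncystic females and 1 in Pkd1KO against Pkd1KO+ciliaKO females. Among all genes it called 170 against 603 in Pkd1KO against Pkd1KO+ciliaKO males, 764 against 1422 in Pkd1KO+ciliaKO against noncystic males, and in females 294 against 533, 612 against 1869 and 100 against 405 in Pkd1KO against noncystic, Pkd1KO against Pkd1KO+ciliaKO and Pkd1KO+ciliaKO against noncystic. In the order of those 5 comparisons, DESeq2 called 1234, 2157, 962, 2507 and 1280 genes and limma voom 1389, 2803, 809, 2634 and 1357. In Pkd1KO against noncystic males DESeq2 called 1640 against 1008. Without the libraries that stand apart, Pkd1KO+ciliaKO against noncystic gave 2240 in males and 926 in females. With the 3 genotypes in 1 fit, Pkd1KO against Pkd1KO+ciliaKO males gave 929. For the sex-by-genotype terms of Pkd1KO against noncystic, Pkd1KO against Pkd1KO+ciliaKO and Pkd1KO+ciliaKO against noncystic, edgeR called 2, 35 and 5 genes, DESeq2 29, 72 and 21, and the block 0, 22 and 3.

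No value that changed sign was called. In Pkd1KO against noncystic, *Slc2a1* in males was 0.0347 without the 4 libraries, and in females *Slc5a2* was 0.15 with the block and 0.21 with voom, *Slc2a1* -0.0221 with voom and -0.000195 without the 2 libraries, and *Slc2a2* -0.0190 without them. In Pkd1KO against Pkd1KO+ciliaKO, *Slc5a1* in males was -0.0283 with voom, and in females *Slc5a12* was -0.0054 with the block and *Slc5a8* 0.0112 with voom. In Pkd1KO+ciliaKO against noncystic females, *Slc5a8* was 0.0021 with DESeq2 and with its size factors, 0.00718 with edgeR's own filter and 0.0180 without the 2 libraries. Between sexes *Slc5a2* was -0.0319 without the 6 libraries. Leaving out 1 mouse also turned the sign of 12 values, which ran from -0.0217 to 0.0544 (*Slc2a1*), -0.0190 to 0.0720 (*Slc2a2*), -0.134 to 0.0420 (*Slc5a10*), -0.196 to 0.0145 (*Slc5a12*) and -0.216 to 0.0563 (*Slc5a2*) in Pkd1KO against noncystic females, from -0.00480 to 0.127 (*Slc5a1*) in Pkd1KO against Pkd1KO+ciliaKO males, from -0.0405 to 0.0565 (*Slc5a12*) and -0.158 to 0.0491 (*Slc5a8*) in Pkd1KO against Pkd1KO+ciliaKO females, from -0.0301 to 0.0775 (*Slc2a1*) in males and -0.151 to 0.0614 (*Slc5a8*) in females in Pkd1KO+ciliaKO against noncystic, and from -0.123 to 0.0872 (*Slc5a12*) and -0.0700 to 0.203 (*Slc5a2*) between sexes.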
